A study of Rattus norvegicus with 9 samples.

Results

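The 9 genes studied here are *Bdnf*, *Nptx1*, *Nptx2*, *Nrn1*, *Inhba*, *Pcsk1*, *Scg2*, *Vgf* and *Homer1*. As a group they are genes that electrical activity can induce in neurons and whose products are secreted or act at the synapse. How soon after activity each of them responds was not measured. They were measured by RNA sequencing in cultured rat cortical neurons under alternating or direct current. They were taken by gene symbol from the expression table, where each symbol has 1 row, so the set holds 9 of 32623 genes. All 9 passed the filter on low counts. The neurons were wild-type primary cells from Wistar rat embryos of day 16 to 18, grown on conductive glass. The control group received no current, the DCS group direct current and the ACS group alternating current, with 3 libraries per group and 9 in all. The labels give 3 µA, 20 min and 7 days in both stimulated groups and also name 20 Hz for both. In the paper's search for settings the minutes are per day, and the 20 Hz is given for ACS. They place the cells at day 7 in vitro, while the growth protocol in the same labels runs to day 14. The time between the last stimulation and lysis is not given in the sources used here. The sources do not say whether each library is a culture of its own, so each p-value measures only the spread between these samples, which may be technical.

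Electrical activity and calcium entry first raise a set of immediate early transcription factors such as Fos, Egr1 and Npas4. These factors and the calcium-regulated factor CREB, already present in the cell, drive further genes, among them ones whose products leave the cell or act at the synapse. BDNF is a neurotrophin that signals through the receptor TrkB. The activin subunit encoded by *Inhba* forms a ligand of the TGF-β family. The pentraxins of *Nptx1* and *Nptx2* cluster AMPA receptors, and neuritin, from *Nrn1*, is a membrane-anchored protein that promotes neurite growth. Scg2 and Vgf are granin-like proteins stored in dense core vesicles and cut into peptides, and *Pcsk1* encodes a protease that cuts such precursors. Homer1 links metabotropic glutamate receptors to the postsynaptic scaffold, and a short form of it is the one induced by activity.

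The promoters of some of these genes carry the binding element of CREB (the cyclic AMP response element, CRE), which is why 4 stretches are shown. RefSeq promoter windows, on the rat build GRCr8, run from 250 bases before a transcription start to 50 bases after it. Windows were matched by symbol for 6 of the 9 genes, 11 windows in all because *Bdnf* has 6. *Nptx1*, *Nrn1* and *Pcsk1* had none. Each stretch below is 140 bases long and is written 5′ to 3′ on the strand of the gene. Capitals mark the full CRE (TGACGTCA), the short CRE site (TGACG, which lies inside the full CRE on each strand) and the EGR site (GCGNGGGCG), each searched on both strands. The *Vgf* stretch lies at chr12:25277026-25277165 and that of *Nptx2* at chr12:15162051-15162190, both on the minus strand. The *Scg2* stretch lies at chr9:88256905-88257044 on the minus strand and the *Bdnf* stretch, from 1 of its 6 windows, at chr3:116637718-116637857 on the plus strand.
Vgf: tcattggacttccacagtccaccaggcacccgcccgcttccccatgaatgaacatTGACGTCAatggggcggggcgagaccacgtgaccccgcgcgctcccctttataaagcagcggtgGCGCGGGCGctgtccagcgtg
Scg2: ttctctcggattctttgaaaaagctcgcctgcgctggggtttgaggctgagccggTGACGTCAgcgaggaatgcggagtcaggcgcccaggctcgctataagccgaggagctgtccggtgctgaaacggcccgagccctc
Nptx2: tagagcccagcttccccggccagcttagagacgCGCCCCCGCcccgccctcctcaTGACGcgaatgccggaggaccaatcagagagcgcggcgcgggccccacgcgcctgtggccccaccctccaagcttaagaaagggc
Bdnf: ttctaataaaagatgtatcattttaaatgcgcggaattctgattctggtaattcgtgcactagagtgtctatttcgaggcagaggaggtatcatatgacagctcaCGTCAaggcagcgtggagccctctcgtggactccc

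The full CRE begins 90 bases before the start in *Vgf* and 123 bases before it in *Scg2*, and 1.83% of the 33469 rat promoter windows hold one. *Nptx2* has a short CRE site that begins 90 bases before the start, and *Bdnf* has one 35 bases before the start of the window shown. In all 4 of the 11 windows hold a short CRE site, as do 21.2% of all windows. An EGR site lies in the windows of *Vgf* and *Nptx2* and in 4.98% of all windows. The AP-1 site (TGANTCA) was found in another *Bdnf* window, and 7.33% of all windows hold it. The windows of *Inhba* and *Homer1* held none of these letters. A match is a description of the sequence, and binding was not measured.

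Deposited counts summed to 49039412 to 68690760 per library, with the ACS libraries at the low end (49039412 to 52938628). Of the counts from 1 to 15, 34.1% are 4, 8 or 12, so a count may not stand for 1 fragment. Expression is given as CPM, the count relative to the library total after TMM scaling, and errors are SDs between the 3 libraries of each group. Levels of different genes are compared as FPKM, which corrects for transcript length. The label of cortical neurons was checked against 9 marker lists. The 7 general neuronal markers summed to 7121 to 8120 CPM per library and the 7 astrocyte markers to 632 to 970 CPM, while the 5 measured endothelial markers reached 2.68 CPM at most. Under ACS against control *Rbfox3* (neurons), *Gfap* (astrocytes) and *C1qa* (microglia) rose, each 1 of the 7 tested genes of its list, and 3 of 7 progenitor markers fell (*Hes5*, *Mki67* and *Vim*). The progenitor list summed to 941 to 995 CPM in control, 903 to 945 CPM in DCS and 817 to 896 CPM in ACS libraries, and the microglia list to 163 to 176 CPM over all libraries. No marker of excitatory neurons, GABAergic interneurons, the oligodendrocyte lineage, endothelial cells or fibroblasts passed the test. The part of these markers in the results below was not tested. In bulk RNA, fewer cells of a type and less RNA per cell cannot be told apart.

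Per transcript length, *Homer1* was the highest at a mean of 24.8 FPKM over the 9 libraries, above 77.4% of the tested genes. *Scg2* (22.8 FPKM) and *Inhba* (20.1 FPKM) followed. The range of *Scg2* overlapped those of *Homer1* and *Inhba*, whereas every *Homer1* library (23.0 to 26.0 FPKM) lay above every *Inhba* library (17.5 to 22.2 FPKM). *Vgf* (7.53 FPKM), *Nptx2* (5.59 FPKM), *Nrn1* (4.89 FPKM) and *Nptx1* (3.84 FPKM) formed a middle range in which neighbours overlapped, although every library had more *Nrn1* than *Nptx1*. *Pcsk1* (1.06 FPKM) and *Bdnf* (0.543 FPKM) were the lowest, and only 13.4% of the tested genes lay below *Bdnf*. The plain gaps were between *Inhba* and *Vgf* and between *Nptx1* and *Pcsk1*, where the lowest library of the higher gene exceeded the highest of the lower gene.

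**Figure D1:**
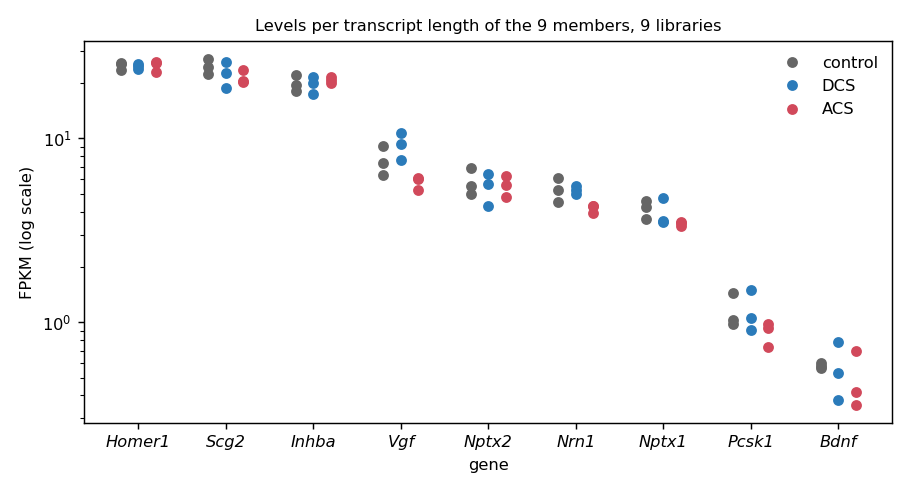
FPKM (log scale) of the 9 genes in each of the 9 libraries, ordered by the mean over all libraries and coloured by group. The genes range from *Homer1* at 24.8 FPKM to *Bdnf* at 0.543 FPKM, and for *Vgf* the 3 ACS libraries (5.27 to 6.07 FPKM) lie below the other 6.

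None of the 9 genes passed the test for a rise or a fall under either current. The test was edgeR's quasi-likelihood test over all genes, with Benjamini-Hochberg adjusted p-values. The first comparison set alternating current against control. There 0 of 9 passed at an adjusted p under 0.05, where 4.16% of all 16284 tested genes did (2.83% higher and 1.33% lower). DESeq2 and limma also called 0. At an unadjusted p under 0.05, 2 of 9 were lower and none higher, against 20.8% of all tested genes in either direction (10.0% lower and 10.8% higher). At the study's own thresholds (raw p under 0.05 together with a log2 change beyond 1 in either direction), 0 of 9 and 1.47% of all tested genes passed. The ACS and control libraries did not overlap for 3 of 9, *Nptx1*, *Nrn1* and *Vgf*, each lower under ACS, where 27.1% of all tested genes had groups apart (13.0% lower and 14.0% higher). The median log2 fold change of the 9 was -0.232, and that of all tested genes was -0.00287. The upper ends of the approximate 95% intervals lay at a fold change of 1.35 (*Bdnf*) or less. Each interval covers its gene alone, and they set no joint bound. The rows of *Bdnf* and *Homer1* sum several transcripts, so a rise of a single transcript is not bounded by them.

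Under direct current against control, 0 of 9 passed the adjusted test from edgeR, as did 0.0123% of all tested genes (0.00614% higher and 0.00614% lower). An unadjusted p under 0.05 was found for 0 of 9 and for 7.09% of all tested genes (4.03% higher and 3.05% lower), and DESeq2 and limma called 0. At the study's thresholds 0 of 9 and 0.571% of all passed. No gene had DCS and control libraries apart, where 11.1% of all tested genes had (5.51% lower and 5.59% higher). Their median log2 fold change was -0.0293, against 0.00275 over all tested genes, and the highest upper end of a 95% interval was a fold change of 1.52 for *Bdnf*. Between ACS and DCS, edgeR called 0 of 9, where it called 0.633% of all tested genes (0.510% higher and 0.123% lower), DESeq2 called *Vgf* and limma 0. At an unadjusted p under 0.05, 1 of 9 was lower under ACS, where 13.9% of all tested genes passed (6.66% lower and 7.22% higher). At the study's thresholds 0 of 9 and 1.03% of all passed. *Nrn1* and *Vgf* had ACS libraries below all DCS libraries, where 21.4% of all tested genes had groups apart (10.2% lower and 11.2% higher). Each pair of these comparisons shares a group of libraries.

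**Figure D2:**
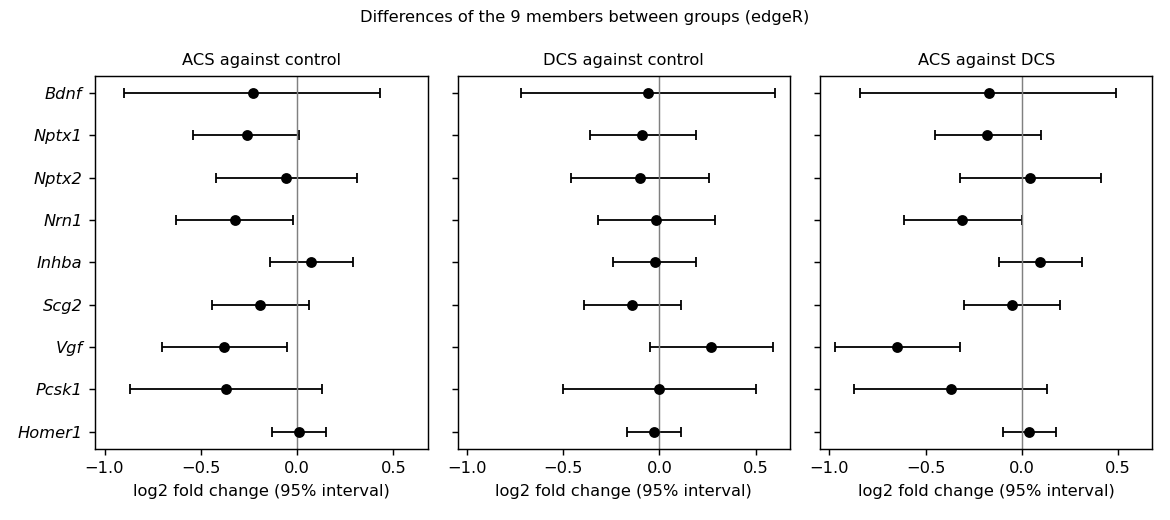
Log2 fold change (points) and approximate 95% interval (bars) of each of the 9 genes in the 3 comparisons, from edgeR. The intervals of *Nrn1* and *Vgf* for ACS against control and of *Vgf* for ACS against DCS leave out 0, and the interval farthest from 0 is that of *Vgf* for ACS against DCS (-0.97 to -0.32).

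Among the vesicle proteins, *Vgf* showed the largest differences of the 9. The gene lies at chr12:22677607-22680630 on the minus strand of the build the table uses, which it does not name. Its level was 20.1, 17.3 and 24.7 CPM in control libraries 1, 2 and 3, and 21.0, 25.2 and 28.7 CPM in the DCS libraries. In the ACS libraries it was 14.6, 16.5 and 16.7 CPM. All 3 ACS libraries thus lay below all 6 others, and the control and DCS libraries overlapped. How many of all tested genes have ACS libraries below all 6 others was not counted. The log2 fold change was -0.38 for ACS against control (standard error 0.146, adjusted p = 0.176 from edgeR) and 0.27 for DCS against control (standard error 0.145, adjusted p = 0.705). Without control library 3 these were -0.23 and 0.42, and the value for DCS against control was 0.16 without control library 2 and 0.15 without DCS library 3. For ACS against DCS it was -0.65 (standard error 0.146, adjusted p = 0.0832 from edgeR, unadjusted p = 0.00135), with an interval of -0.97 to -0.32. The direction held in 3 of 3 ACS libraries. DESeq2 gave the same difference an adjusted p of 0.000857, limma 0.111 on log2(FPKM + 1) and 0.114 on log2(FPKM + 0.1). Without control library 3 edgeR's adjusted p was 0.0497, and over the 19 alternatives it ranged from 0.000857 to 0.258. Whether *Vgf* passed between the currents thus depended on the test and on 1 control library.

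*Scg2*, the other granin-like gene (chr9:85237458-85243001, minus strand), had a higher level. It had 61.3, 56.0 and 66.8 CPM in the control libraries, 46.6, 56.6 and 63.9 CPM under DCS, and 51.1, 51.3 and 58.8 CPM under ACS. All 3 groups overlapped. The log2 fold change was -0.19 for ACS against control (interval -0.44 to 0.06, adjusted p = 0.367 from edgeR) and -0.14 for DCS against control (adjusted p = 0.778). The latter was -0.027 without DCS library 1, -0.25 without DCS library 3 and -0.074 without control library 3. The convertase gene *Pcsk1* (chr2:91450162-91497091, minus strand) had 5.4, 5.12 and 7.49 CPM in control libraries and 4.75, 5.53 and 7.70 CPM under DCS. Under ACS it had 4.97, 3.85 and 5.14 CPM, and ACS library 3 lay just above control library 2, so the groups overlapped. The log2 difference between ACS and control was -0.37, with a wide interval (-0.87 to 0.13) and an adjusted p of 0.388 in edgeR. With 1 library left out it ran from -0.47 to -0.18, the latter without control library 3. The DCS mean of 6.0 ± 1.53 CPM was close to the control mean of 6.01 ± 1.29 CPM (SD, n = 3 each).

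The neurotrophin gene *Bdnf* (chr3:100768637-100819210, plus strand) was the lowest of the 9 and spread most within the stimulated groups. Its deposited counts were 195, 245 and 240 in the control libraries, 124, 192 and 335 under DCS, and 114, 130 and 232 under ACS. Scaled to depth, these were 3.65, 3.59 and 3.72 CPM in control libraries, 2.38, 3.32 and 4.81 CPM under DCS, and 2.26, 2.66 and 4.4 CPM under ACS. The control libraries lay within 1.04-fold of each other, whereas the highest DCS library exceeded the lowest by 2.03-fold and the highest ACS library the lowest by 1.95-fold. The difference in spread was not tested. In each stimulated group library 3 was above every control library, and libraries 1 and 2 were below every control library. The log2 fold change was -0.23 for ACS against control (interval -0.90 to 0.43, adjusted p = 0.707 from edgeR), and without ACS library 1 or 3 it was -0.048 or -0.57. The table sums 8 *Bdnf* transcripts in 1 row, so the activity-dependent promoters of the gene cannot be told apart here.

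*Inhba*, the activin subunit gene (chr17:51898217-51912496, minus strand), was among the higher ones. It had 59.0, 51.4 and 47.3 CPM in control libraries, 53.3, 56.5 and 45.3 CPM under DCS, and 57.9, 55.0 and 53.1 CPM under ACS. All groups overlapped, and the log2 fold change for ACS against control was 0.075 (interval -0.14 to 0.29, adjusted p = 0.709 from edgeR). It was 0.16 without control library 1, 0.0039 without control library 3 and 0.041 without ACS library 1. *Homer1* (chr2:22909569-23009678, plus strand) was the most even of the 9, with 53.0 to 59.5 CPM over all 9 libraries. It had 56.6 ± 3.12 CPM in the control group, 55.5 ± 1.40 CPM under DCS and 57.0 ± 3.47 CPM under ACS (SD, n = 3 each). The interval of its log2 fold change for ACS against control was narrow, from -0.13 to 0.15 (adjusted p = 0.949 from edgeR). The row sums 3 transcripts, and the short and long forms of Homer1 were not separated in it, so the induced form cannot be read from this level.

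The pentraxin genes and *Nrn1* act at the neuronal surface. *Nptx1* (chr10:108682638-108691367, minus strand) had 22.5, 17.9 and 20.5 CPM in the control libraries, 17.5, 17.1 and 22.8 CPM under DCS, and 17.4, 16.4 and 17.0 CPM under ACS. The ACS libraries were below all control libraries but not below all DCS libraries. Its log2 fold change for ACS against control was -0.26 (standard error 0.124, adjusted p = 0.259 from edgeR). *Nptx2* (chr12:12013911-12025549, minus strand) had 15.9, 17.4 and 21.4 CPM in control libraries, 13.5, 17.7 and 19.9 CPM under DCS, and 17.7, 15.1 and 19.7 CPM under ACS. The 3 groups of *Nptx2* overlapped throughout, with a log2 fold change of -0.057 for ACS against control (interval -0.42 to 0.31, adjusted p = 0.876 from edgeR). Without control library 3 it was 0.075 and without ACS library 2 it was 0.037, the opposite sign.

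*Nrn1* (chr17:27925057-27969433, minus strand) was, beside *Vgf*, the gene of the 9 whose ACS libraries lay below all 6 others. Of all tested genes, 13.0% had ACS libraries below all control libraries and 10.2% below all DCS libraries. The share with both was not counted. It had 8.71, 7.45 and 6.40 CPM in control libraries and 7.15, 7.85 and 7.29 CPM under DCS. The ACS libraries had 6.22, 6.16 and 5.64 CPM, the highest of them close to the lowest control library. The log2 fold change was -0.32 for ACS against control (standard error 0.138, adjusted p = 0.216 from edgeR) and -0.31 for ACS against DCS (standard error 0.138, adjusted p = 0.363). Over 19 alternatives the adjusted p for ACS against control ranged from 0.0802 to 0.518, and the log2 fold change was -0.21 without control library 1.

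**Figure D3:**
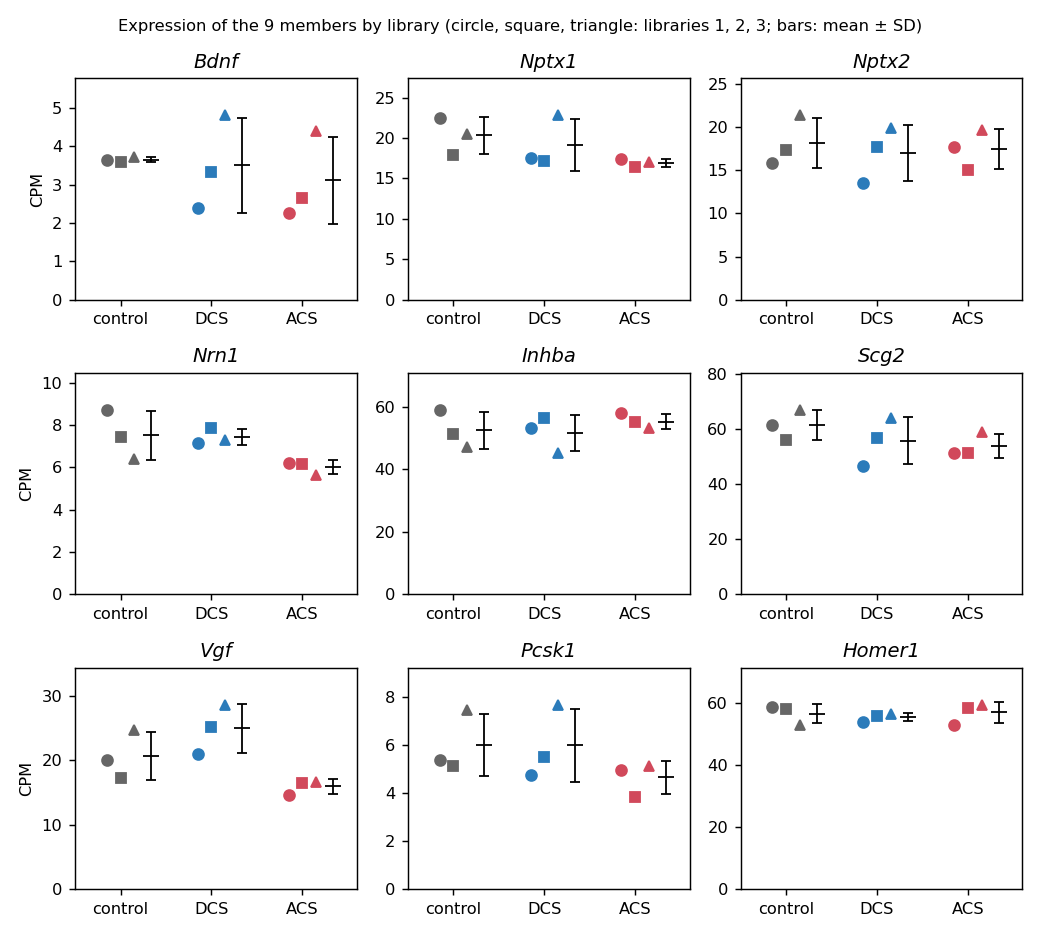
CPM of the 9 genes in each library by group, with the mean and SD of the group as a bar beside the points, and symbols for libraries 1, 2 and 3. The ACS points of *Vgf* (14.6 to 16.7 CPM) and *Nrn1* (5.64 to 6.22 CPM) lie below the others, and *Bdnf* spreads under DCS and ACS but not in the control group.

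Within the groups, 5 of the 9 genes were highest in the same library. *Bdnf*, *Nptx2*, *Pcsk1*, *Scg2* and *Vgf* had their highest CPM in library 3 of the control, of the DCS and of the ACS group, a place that 6.60% of all tested genes held. *Inhba* had its lowest CPM in library 3 of all 3 groups (6.86% of all tested genes). *Nrn1* was lowest in library 3 of the control and ACS groups. With FPKM in place of CPM, the same count of 5 was found. In DCS library 3 the log2 deviation from the group mean was 0.518 for *Bdnf*, 0.391 for *Pcsk1* and 0.21 for *Scg2*. In DCS library 1, 7 of the 9 genes were at their lowest of the group. The share of all tested genes lowest in that library was not counted, so this may not be particular to the 9. Library 3 was the deepest of the DCS group (68133858) and of the ACS group (52938628) and the middle one of the control group (63969996), and the part of depth was not tested. Over all genes, the deviations of same-numbered libraries of different groups correlated only weakly (-0.0532 to 0.0631), so the numbers are not treated as pairs. The share of tested genes highest in the same-numbered library of all 3 groups was 4.07% for library 1, 3.35% for library 2 and 6.60% for library 3. By FPKM over the tested genes, control library 3 was nearest to DCS library 3, and DCS library 3 to control library 2. Whether the libraries numbered 3 share an effect was not tested. The SD within groups of log2 CPM was above that of most genes of like level (within a factor of the square root of 2 of its mean CPM) for 7 of the 9. *Scg2* had an SD of 0.165 where the median of 2265 such genes was 0.0832. *Homer1* (0.0727) and *Nrn1* (0.142) were below the medians.

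**Figure D4:**
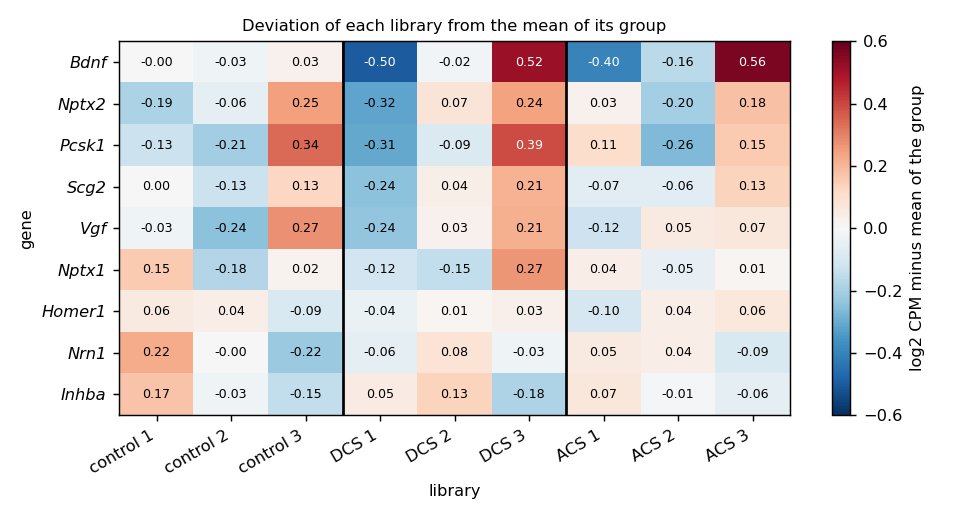
Log2 CPM of each gene in each library minus the mean of its group (colour and printed value), with lines between the groups. The upper 5 genes are positive in library 3 of each group, up to 0.563 for *Bdnf* in ACS library 3, and *Inhba* is negative there.

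The genes most like each member were sought among 8817 genes with a mean of at least 5 FPKM, by the root mean square difference of log2 CPM over the 9 libraries after centring each gene on its mean. For *Vgf* these were *Mcfd2* (0.164) and *Cdca4* (0.167), against a root mean square of 0.311 for *Vgf* itself. For *Bdnf* they were *Lgals3* (0.123) and *Smpdl3a* (0.124), for *Scg2* *Sat1* (0.0654) and *Trmt10a* (0.0657), and for *Nptx2* *Siglec5* (0.0798) and *Crat* (0.0994). For *Nptx1* they were *Mak16* (0.065) and *Ccndbp1* (0.0767), for *Nrn1* *Tfam* (0.0608) and *Mcat* (0.0681), and for *Pcsk1* *Amacr* (0.129) and *Zfp629* (0.133). *Inhba* was nearest to *Fbxo25* (0.0434) and *Hnrnpa1* (0.0455) and *Homer1* to *Maged2* (0.028) and *Birc2* (0.0338). The root mean square of the gene itself was only 0.121 for *Inhba* and 0.0614 for *Homer1*. These genes are the nearest of many candidates, a description with no test. Among the 9 themselves, *Scg2* was the nearest to *Bdnf*, *Nptx1*, *Nptx2* and *Pcsk1*, at 0.118 for *Nptx2*.

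Immediate early transcription factors differed between the groups in the same libraries. Of 20 immediate early transcription factors, 13 rose and none fell for ACS against control, with a median log2 fold change of 0.93. *Fos*, a subunit of AP-1, rose from 16.6 ± 3.46 CPM under control to 92.7 ± 12.2 CPM under ACS (mean ± SD of 3 libraries). In edgeR this was a log2 difference of 2.48 with a standard error of 0.203 and an adjusted p of 0.000361. *Egr1*, a zinc finger factor, rose from 45.9 ± 8.99 CPM under control to 208 ± 23.7 CPM under ACS, and edgeR put the log2 difference at 2.18 with an adjusted p of 0.000301. Under DCS against control 0 of the 20 passed, and the median was 0.06. At an unadjusted p under 0.05, 2 were higher, where 4.03% of all tested genes were. DESeq2 and limma called 0, and edgeR called 1 without control library 3. For ACS against DCS 9 of 20 rose, where 0.510% of all tested genes did. The 9 became 5 without ACS library 1 or DCS library 2. Thus 13 of 20 early factors and 0 of the 9 genes studied were called higher under ACS against control, where 2.83% of all tested genes were. Both lists were chosen with earlier results of these data known, and the difference between them was not tested.

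Other effector genes that activity is known to induce were compared in the same way. Of the 23 tested genes of this kind, 0 passed edgeR's adjusted test for ACS against control, where 4.16% of all tested genes did. At an unadjusted p under 0.05, 1 was higher and 3 were lower, against 10.8% and 10.0% of all tested genes. DESeq2 called 1, limma 0, and edgeR 1 without control library 3. The median log2 fold change of the 23 was -0.07. *Npy*, a neuropeptide, had 7.00 ± 1.04 CPM in the control group and 9.68 ± 0.955 CPM under ACS (SD, n = 3 each; log2 fold change 0.47, adjusted p = 0.0879 from edgeR). *Plat*, which encodes tissue plasminogen activator, had 22.3 ± 0.485 CPM and 18.3 ± 0.293 CPM (log2 fold change -0.29, adjusted p = 0.113). *Pdyn*, an opioid precursor, had low levels of 1.62 ± 0.372 CPM in the control group and 0.87 ± 0.278 CPM under ACS (log2 fold change -0.89, adjusted p = 0.144). *Acan*, a proteoglycan of perineuronal nets, differed by -0.42 on the log2 scale (adjusted p = 0.179). In edgeR 0 of the 23 passed for DCS against control (1 lower at an unadjusted p under 0.05, DESeq2 and limma 0) and for ACS against DCS (2 higher and 3 lower unadjusted, DESeq2 2 and limma 0). Of all tested genes, 3.05% were lower unadjusted for DCS against control, and 7.22% were higher and 6.66% lower for ACS against DCS.

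The dense core vesicle machinery handles secreted precursors such as those of *Scg2* and *Vgf*. Of its 20 tested genes, 0 passed in edgeR, DESeq2 or limma in any of the 3 comparisons (edgeR called 1 for ACS against control without control library 3). For ACS against control 4.16% of all tested genes passed in edgeR. At an unadjusted p under 0.05 in that comparison, 1 of the 20 was higher and 2 were lower, against 10.8% and 10.0% of all tested genes. The median log2 fold change of the 20 was 0.04. For DCS against control 1 was lower at an unadjusted p under 0.05, where 3.05% of all tested genes were. For ACS against DCS 2 were higher, where 7.22% of all tested genes were. *Chga*, a granin, had 76.9 ± 1.14 CPM in the control group and 84.2 ± 2.55 CPM under ACS (SD, n = 3 each; log2 fold change 0.13, adjusted p = 0.117 from edgeR). *Vps13a*, a lipid transfer protein gene, differed by -0.25 on the log2 scale (adjusted p = 0.138). *Rab27b*, a small GTPase of vesicle release, had low levels of 2.82 ± 0.487 CPM in the control group and 1.81 ± 0.285 CPM under ACS (log2 fold change -0.64, adjusted p = 0.144). *Baiap3*, also low, had 2.03 ± 0.221 CPM and 2.94 ± 1.0 CPM (log2 fold change 0.53, adjusted p = 0.25). *Pcsk2*, the partner convertase of *Pcsk1*, was at 56.1 ± 2.91 CPM in the control group and 56.6 ± 2.42 CPM under ACS (SD, n = 3 each), with an interval of its log2 fold change from -0.15 to 0.18.

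Of 27 tested receptors and partners of the 9 gene products, *Shank1* alone passed in edgeR, for ACS against control and for ACS against DCS. For ACS against control limma also called 1, whereas 2 were called by DESeq2 and, in edgeR, without control library 3, without DCS library 3, with a mean of at least 1 FPKM and with counts divided by 4. At the study's thresholds 0 passed. *Shank1* encodes a postsynaptic scaffold that Homer1 binds. It rose from 233 ± 8.74 CPM in the control group to 359 ± 13.4 CPM under ACS (mean ± SD of 3 libraries). The log2 difference was 0.62 in edgeR, with an adjusted p of 0.00254, and against DCS it was 0.41 with an adjusted p of 0.0431. Against DCS the count of called genes in this list fell to 0 in 7 of the 9 fits that leave out a library (each ACS library, control 1 or 2, DCS 2 or 3). *Shank3*, of the same family, differed by 0.27 on the log2 scale for ACS against control (adjusted p = 0.053). *Ntrk2*, the gene of TrkB, had 474 ± 11.4 CPM in the control group and 495 ± 6.53 CPM under ACS (SD, n = 3 each; log2 fold change 0.063, adjusted p = 0.378). *Nptxr*, the pentraxin receptor gene, differed by 0.10 on the log2 scale (adjusted p = 0.405). *Acvr1c*, an activin receptor, and *Homer2* had -0.43 (adjusted p = 0.242) and -0.17 (adjusted p = 0.252). For DCS against control 0 of the 27 passed in edgeR (*Shank1* higher and *Gria3* lower at an unadjusted p under 0.05, and 0 by DESeq2 and limma). Of all tested genes 4.03% were higher and 3.05% lower at that unadjusted threshold. For ACS against DCS 7 of the 27 were higher and 0 lower at an unadjusted p under 0.05, where 7.22% of all tested genes were higher, and 1 passed the adjusted test. Beside *Shank1* these were *Ntrk2*, *Sort1*, *Shank3* and the AMPA receptor subunit genes *Gria2*, *Gria3* and *Gria4*, with log2 differences of 0.088 to 0.24 and adjusted p-values of 0.141 to 0.359 from edgeR. Against control, *Gria2*, *Gria3* and *Gria4* had log2 fold changes of 0.014, -0.087 and 0.12 under ACS and of -0.11, -0.28 and -0.11 under DCS. *Ntrk2* and *Sort1* had 0.063 and 0.041 under ACS and -0.074 and -0.046 under DCS. *Shank3* was above control under both, by 0.27 under ACS and 0.11 under DCS.

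**Figure D5:**
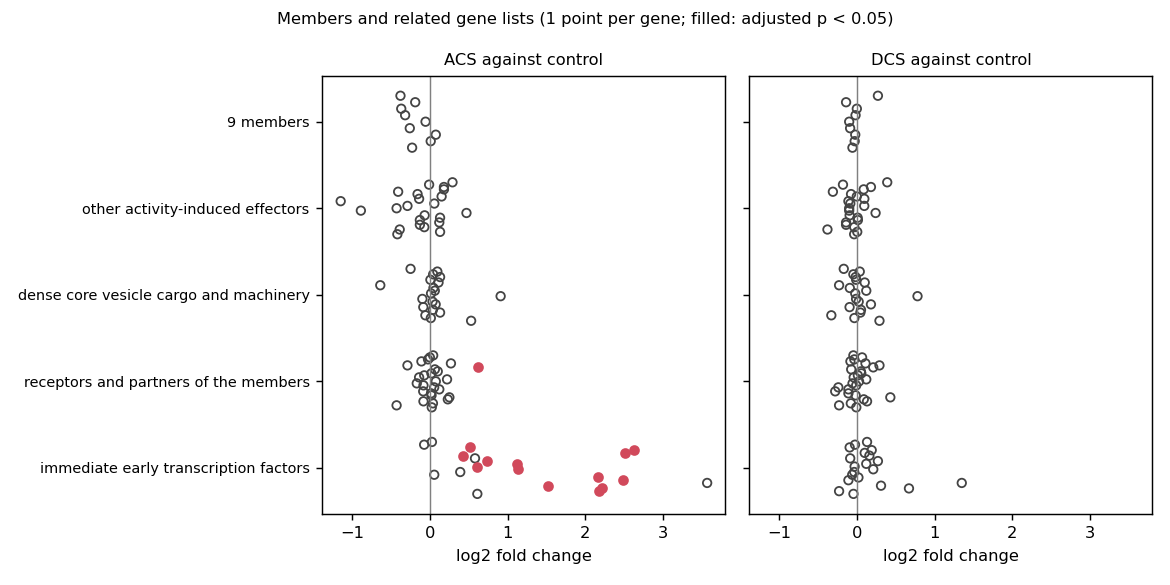
Log2 fold change against control under ACS (left) and DCS (right) of the 9 genes and of 4 related lists, with 1 point per gene and filled points for an adjusted p under 0.05 from edgeR. Under ACS 13 of 20 immediate early transcription factors and *Shank1* are filled, whereas no point of the 9 genes is, and under DCS none is filled.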

How the data were processed

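Polyadenylated RNA from 9 libraries of rat cortical neurons (3 control, 3 DCS, labelled DES, and 3 ACS) was sequenced. The authors trimmed the reads (fastp in the paper, cutadapt 1.9 in the submitters' processing notes), aligned them with HISAT2 (2.0.4 in the notes) and quantified them with StringTie (1.3.4d). The notes name UMI-tools without its role, and the table names no genome build. The deposited FPKM values were computed by the authors per transcript length and library size, with zeros written as 0.0001. The deposited estimated counts are whole numbers, and 34.1% of those from 1 to 15 are 4, 8 or 12.

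Counts were tested with edgeR 4.0.16 (R 4.3.3) in 1 quasi-likelihood fit over the 9 libraries, with TMM scaling and filterByExpr (minimum count 10, minimum total 15), which kept 16284 of 32623 genes and left 6 residual degrees of freedom. Approximate 95% intervals came from the fitted standard errors. The scripts were tested on simulated data. Alternatives were DESeq2 1.42.0, limma 3.58.1 on log2(FPKM + 1) or log2(FPKM + 0.1), other scalings, filters and counts divided by 4, a fit of only the 6 libraries compared, a block for the replicate number, the study's thresholds (unadjusted p under 0.05, absolute log2 fold change over 1), and each library left out. The 9 genes, the 4 related lists and the 9 marker lists were chosen with earlier results of these data known. Named were all 9 genes, up to 4 genes of a related list with the smallest p under ACS or called, and the 2 genes most like each of the 9. Further genes (*Ntrk2*, *Nptxr*, *Pcsk2*, *Sort1*, *Gria2*, *Gria3*, *Gria4*) were named for their role or their unadjusted p after their values were seen. Same-numbered libraries correlated at -0.0532 to 0.0631 in their deviations from group means.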

Additional observations from a re-analysis of the deposited data

Results flagged for a closer look

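*Vgf* was picked out because every ACS library lay below the control mean and every DCS library above it. Its log2 fold change for ACS against DCS was -0.65. The test of that difference used the same libraries that picked the gene out, so it is not independent of the choice. For it edgeR gave an adjusted p of 0.0832, which misses the threshold, and DESeq2 one of 0.000857. DCS library 1 (21.0 CPM) lay just above the control mean (20.7 CPM), and the control and DCS libraries overlapped.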

How the results depend on the processing

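For ACS against control and DCS against control, 0 of the 9 genes were called under each of the 20 alternatives. For ACS against DCS, DESeq2 called 1 (*Vgf*), and with a library left out edgeR called 0 to 1 (*Vgf* without control library 3). With the replicate number as a block edgeR called 0 of 9 in each comparison, the adjusted p of *Vgf* for ACS against DCS was 0.0728, and genes called over all tested went from 678 to 475 (ACS against control) and from 103 to 59 (ACS against DCS). Over all tested genes DESeq2 called 1652 in place of 678, 38 in place of 2 and 650 in place of 103. With a library left out these counts were 138 to 1431, 1 to 47 and 27 to 184, the highest of each without control library 3, and limma on log2(FPKM + 1) called 64 and on log2(FPKM + 0.1) 65 for ACS against DCS. At the study's thresholds 239, 93 and 168 genes passed in the edgeR fit used here, none of them among the 9. The counts that the paper reports for the comparisons with control differ from these. For DCS against control 1 gene in place of 2 was called with the block, with counts divided by 4, with the 6 libraries alone and with limma on log2(FPKM + 1). *Shank1* was not called for ACS against DCS with the block, the 6 libraries alone or limma. The cause of these differences was not tested.

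Of 510 alternative values of single log2 fold changes, 482 kept their direction and their side of the threshold, 2 crossed it (*Vgf*) and 26 changed sign, none of them called. With limma, *Homer1* for ACS against control was -0.0049 (log2(FPKM + 1)) or -0.0051 (log2(FPKM + 0.1)), and *Nrn1* for DCS against control was 0.00096 or 0.0024. *Pcsk1* for DCS against control was 0.0013 with counts divided by 4 and 0.0016 with limma on log2(FPKM + 1). With a library left out, values for ACS against control ran from -0.15 to 0.075 (*Nptx2*) and from -0.036 to 0.058 (*Homer1*). For DCS against control they ran from -0.36 to 0.16 (*Bdnf*), -0.23 to 0.043 (*Nptx2*), -0.12 to 0.10 (*Nrn1*), -0.093 to 0.068 (*Inhba*) and -0.23 to 0.19 (*Pcsk1*). For ACS against DCS they ran from -0.51 to 0.12 (*Bdnf*), -0.10 to 0.17 (*Nptx2*) and -0.17 to 0.057 (*Scg2*). *Bdnf* has no value at a minimum mean of 1 FPKM. Small changes of single genes can be missed at this number of libraries.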
